A study of Mus musculus with 16 samples.

Results

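The regions described here were 1175 CpG-rich OCT4 peaks that lay at promoters in mouse embryonic stem (ES) cells, out of 26704 OCT4 peaks in all. A peak was a member if an annotated transcript start of a protein-coding gene was at most 1 kb from its midpoint, if its GC content was at least 55%, and if its ratio of observed to expected CpG dinucleotides was at least 0.6. The 3674 peaks that met the distance limit were 13.8% of the list, and the members were 32% of those and 4.40% of the list. The other 2499 promoter peaks, called CpG-poor, served for comparison only. Of these, 468 missed the GC limit alone, 381 missed the CpG limit alone and 1650 missed both.

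The peaks came from chromatin immunoprecipitation with sequencing of OCT4 in 2TS22C cells, an ES cell line whose own Sox2 alleles are inactive and whose SOX2 comes from a transgene under a Tet-Off promoter. Per the labels there were 4 OCT4 libraries, 2 from untreated cells (SOX2 ON) and 2 from cells given doxycycline at 1 µg/ml for 26 h (SOX2 OFF), all grown with serum, kinase inhibitors and LIF. The study asked how chromatin changes when SOX2 or OCT4 is lost. The line limits the groups as a model, since it is 1 line with a transgene as its source of SOX2, and some SOX2 protein is still left after that time. The series held 16 libraries in 8 groups of 2 replicates, and the BRG1 and H3K27ac libraries were not analysed here. The list merges libraries and gives each peak as a chromosome, a start and an end, so that it holds no height, no depth, no replicate and no separation of SOX2 ON from SOX2 OFF. The units of every test below are therefore peaks, promoters or sequence windows, which are not biological replicates, and the 95% Wilson intervals cover counting error only.

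CpG islands are stretches of DNA that keep their CpG dinucleotides, because they are mostly free of DNA methylation, and they form the promoters of most housekeeping genes and of many developmental regulators. OCT4 is a POU-domain transcription factor of pluripotent cells that reads the AT-rich octamer ATTTGCAT, and that pairs with SOX2 on a composite motif in which a SOX site adjoins an octamer-like site. POU factors also bind as homodimers to palindromic elements such as the one called MORE. GC-rich promoters hold few AT-rich words by composition alone, so base composition stands beside each motif result below.

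A pair of neighbouring peaks at Nr5a2, a nuclear receptor gene of the pluripotency network, gives an example of sequence from each class. The first line is from the member, which lay in an intron 590 bp downstream of the nearest start (chr1:136952980-136953099, minus strand, build mm10). The second is from a CpG-poor peak 232 bp upstream of that start (chr1:136953802-136953921, minus strand). Capitals mark CpG dinucleotides.
Nr5a2, CpG-rich: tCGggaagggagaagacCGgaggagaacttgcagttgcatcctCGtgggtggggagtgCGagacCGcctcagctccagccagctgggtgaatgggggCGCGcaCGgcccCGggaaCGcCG
Nr5a2, CpG-poor: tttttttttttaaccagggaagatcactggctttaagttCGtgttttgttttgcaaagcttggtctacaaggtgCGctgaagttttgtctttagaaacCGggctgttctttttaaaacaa
The stretch from the member held 11 CpG dinucleotides at a GC content of 68.3%, and the stretch from the CpG-poor peak held 3 at 36.7%. Their CpG ratios were close, at 0.825 and 0.769, so these stretches differed in GC content more than in CpG ratio. Over the whole CpG-poor peak GC was 47.7% and the ratio 0.479, against 66.7% and 0.899 over the whole member. Neither peak had a POU motif or a SOX core in its central 200 bp, while another CpG-poor peak at a downstream start of the gene held a composite motif and a SOX core.

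The composite motif was searched as a 15-base consensus on both strands with at most 3 mismatches, and the central 200 bp of 20 members held a match. None of the 20 was exact, 2 had 2 mismatches and 18 had 3. The 2 with 2 mismatches are shown, with 8 of those with 3 that lay nearest to the peak midpoint, to let the matches be read against each other. They are written 5′ to 3′ with 5 flanking bases on each side. Capitals mark bases equal to the consensus.
Thra: gggggCATTaaTATGCAAATgcatc
Plppr2: cccatCtgTGTTATGCAAATtaagg
Bcat1: agggcCcTTGTgATGCtAATgtgtc
Srrm4: cgggcttTTGTTATGCAgATggcgg
Set: tgtccCAcTGTcATGtAAATatccc
Amotl2: accctCtTTGTTtTcCAAATacttc
Arhgap28: tggctCtTaGTTATGCtAATcggtg
Cdh1: gtctcCAgTGagATGCAAATggagc
1110004F10Rik: tcatcCATTGTTATttAcATcgtcg
Hip1: agaccttTTGTTATtCAAATcacac
The mismatches fell mostly in the SOX part: 42 of the 58 mismatches in the 20 matches were in its 7 bases and 16 in the 8 bases of the OCT part. The OCT part was whole in 8 of the 20 and the SOX part in 1. Of the 20, 14 lay upstream of the nearest start and 6 overlapped a UTR. Thra, which encodes thyroid hormone receptor alpha, had its match at chr11:98742030-98742044 (plus strand), 121 bp upstream of the start. The match at Plppr2, a gene of the phospholipid phosphatase-related family, was at chr9:21936861-21936875 (plus strand), 165 bp upstream of the start. Cdh1, which encodes the cell adhesion protein E-cadherin of epithelial and ES cells, had its match at chr8:106604029-106604043 (plus strand), 107 bp upstream of the start. The midpoint of the Cdh1 peak was in an annotated intron. The other genes include Bcat1, a cytosolic branched-chain aminotransferase, Srrm4, a regulator of neuronal splicing, Set, a histone chaperone, and Hip1, an endocytic adaptor. Their matches lay between 228 bp upstream (Hip1) and 177 bp downstream (Set) of a start, and that of Set was in a UTR.

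The MORE palindrome was searched as a 12-base consensus with at most 2 mismatches and was present in the central 200 bp of 13 members. Of the 13 matches, 10 lay upstream of the start and 5 read the same on both strands. The exact match and the other 4 that were palindromes are shown because they keep the symmetry of a dimer element, again with capitals for bases equal to the consensus.
Zmiz2: gcgtcATGCATATGCATgagca
Emc10: ctctcATGaATATtCATgatgg
Katnbl1: tgaaaATGaATATtCATcttct
Tnks1bp1: cctatATGaATATtCATgagca
Plekhg2: tatattTGCATATGCAatgttg
Emc10 (a subunit of the ER membrane protein complex), Katnbl1 (a katanin regulator) and Tnks1bp1 (a tankyrase-binding protein) carried one and the same palindrome, 2 bases away from the consensus. Zmiz2, a co-regulator of nuclear receptors, had its exact match at chr11:6389340-6389351, 18.5 bp upstream of the start. Tnks1bp1 had its match at chr2:85047973-85047984, 43.5 bp upstream of the start. Pou2f1, which encodes the ubiquitous POU factor OCT1, was also among the 13 with a match of 2 mismatches at chr1:166002527-166002538, 76.5 bp downstream of a start. The midpoint of the Pou2f1 peak was in an intron. Polr2a, which encodes the largest subunit of RNA polymerase II, had one of 2 mismatches 475.5 bp upstream of its start.

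The octamer without mismatch was present in the central 200 bp of 45 members, of which 36 had it upstream of the nearest start. In the 4 matches below, noticed after the sequences were seen, it was followed by the same 5 bases, and the flanks before it differed. Capitals mark the octamer.
Egr2: ggccaATTTGCATacggg
Rel: cgcagATTTGCATacggg
Atp6v1c2: ctgatATTTGCATacggg
Sinhcaf: agctgATTTGCATacggg
Egr2 encodes a zinc-finger factor of hindbrain and nerve development, Rel a subunit of NF-kB, Atp6v1c2 a subunit of the vacuolar proton pump and Sinhcaf a subunit of the SIN3 histone deacetylase complex. These sites were at chr10:67537742-67537749 (minus strand), chr11:23771521-23771528, chr12:17324796-17324803 and chr6:148946487-148946494 (all plus strand). The 4 sites lay 123.5, 554.5, 69.5 and 23.5 bp upstream of the start, in that order of genes.

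The members themselves were short and lay close to the start. Their width ranged from 203 to 1921 bp with a median of 319 bp, against 334 bp for CpG-poor promoter peaks and 352 bp for all peaks. Of the members, 41.8% (39.0 to 44.6%) were at least as wide as the median peak, against 45.2% of CpG-poor promoter peaks, a difference that missed the threshold (odds ratio 0.871, two-sided Fisher's exact test, p = 0.0545). It passed with a GC limit of 60% (odds ratio 0.657, exact p = 2.25e-07). Widths are those of merged peaks, and the part of merging in them was not tested. Only 3 members were wider than 1 kb. The widest, of 1921 bp, was in an intron of Ran (chr5:129020157-129022077), which encodes the GTPase that drives nuclear transport. The next were at Ell, an elongation factor gene (1203 bp), Tspan13, a tetraspanin gene (1122 bp), Maf, a bZIP transcription factor gene (998 bp), and Hist1h1e, a linker histone gene (992 bp, with Hist1h2be also within 1 kb).

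By rule the members were rich in CpG, and the values are given as a description. Their GC content ranged from 55 to 80.2% (median 63.7%), the CpG ratio from 0.6003 to 1.39 (median 0.818), and the number of CpG dinucleotides from 10 to 125 (median 27). The limits cut through a continuous range: just inside the GC limit lay peaks at Gemin7 (55%), Pnisr (55.01%) and Pank4 (55.01%), and just outside it peaks at Gspt1 (54.97%), Cog4 (54.95%) and Thoc1 (54.94%). Just inside the CpG limit lay Idh3a (0.6003), Plbd1 (0.6008) and Mad2l2 (0.6021), and just outside it Slc6a16 (0.5997), Gnpda1 (0.5987) and Prkcb (0.5983). No member had more than 50% of its bases repeat-masked, which allows a share of up to 0.326% (upper limit of the Wilson interval), and 658 had no repeat-masked base at all. Among CpG-poor promoter peaks, 134 were repeat-masked over most of their length.

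The profile of base composition around the midpoints showed a broad rise in CpG density with its top at the members. In bins of 100 bp, mean CpG density was 8.80 per 100 bp (SD 3.71, n = 1174 peaks with a full flank) just downstream of the midpoint and fell to 3.93 at 500 to 600 bp upstream and 5.26 at 500 to 600 bp downstream. At 1900 to 2000 bp upstream it was 1.13. CpG-poor promoter peaks had a different shape, with a low of 2.42 just upstream of the midpoint and a rise to 4.04 at 400 to 500 bp downstream. On average, CpG density was thus higher on the side of the transcribed gene than at their midpoints. The height of each curve over the width of the peaks is set by the rule. The shape of the flanks is not free of it, since the classes were chosen near starts and by whether the peak itself met the limits.

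**Figure D1:**
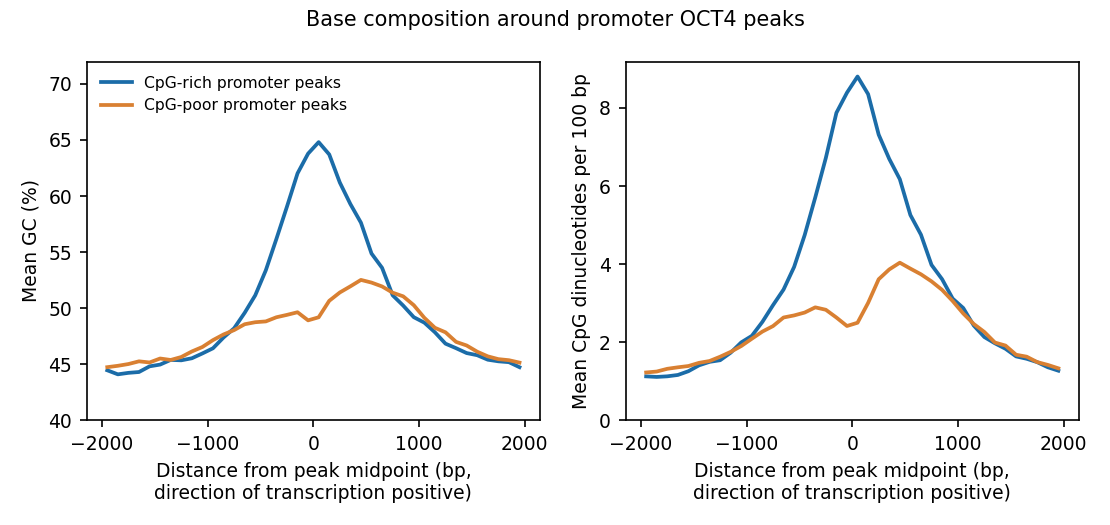
Mean GC content (left, %) and mean number of CpG dinucleotides per 100 bp (right) in 100-bp bins against distance from the peak midpoint (bp), with the direction of transcription positive, for CpG-rich and CpG-poor promoter OCT4 peaks. CpG density peaks at 8.80 per 100 bp at the centre of the CpG-rich class, and in the CpG-poor class it reaches 4.04 at 400 to 500 bp downstream; the left axis does not start at 0.

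The members were centred on the transcript start. Their signed distance to the nearest start had a median of 19.5 bp, with downstream positive, against -121.5 bp for CpG-poor promoter peaks, and their absolute distance a median of 142.5 bp against 350.5 bp. Within 200 bp of a start lay 61.9% of members (59.1 to 64.6%) and 29.2% of CpG-poor promoter peaks. The peak covered the nearest start in 650 of the 1175 members (55.3%) and in 688 of the 2499 others (27.5%). Upstream of the nearest start lay 44.4% of members against 60.2% (p = 3.49e-19 by Fisher's exact test, odds ratio 0.528). The rule's composition limits and the distance to the start are linked, since CpG density itself peaks at starts, and the 2 cannot be told apart in these comparisons.

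**Figure D2:**
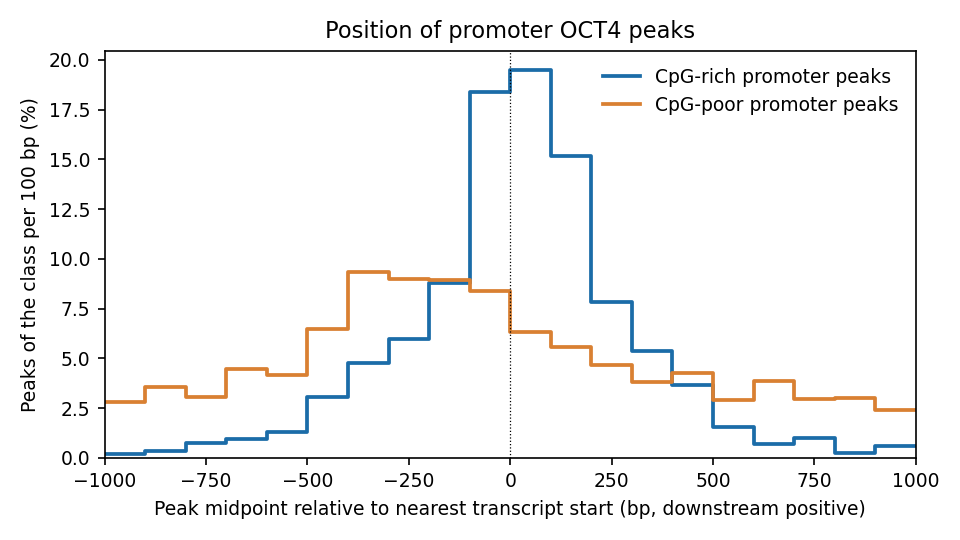
Share of peaks of each class (%) per 100 bp of distance between the peak midpoint and the nearest transcript start, with downstream positive. The CpG-rich class peaks at 19.5% in the first 100 bp downstream of the start, and the CpG-poor class at 9.32% between 400 and 300 bp upstream.

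The midpoint was in a UTR for 31.6% of members, in a coding exon for 11.7%, in another exon for 9.11%, in an intron for 27.4% and between genes for 20.3%. For CpG-poor promoter peaks these shares were 10.1%, 3.16%, 9.24%, 48.3% and 29.2%. Starts of a pair of genes on opposite strands both lay within 1 kb of the midpoint for 162 members (13.8%, 11.9 to 15.9%). The share was 5.76% of CpG-poor promoter peaks (odds ratio 2.62, Fisher's exact p = 2.19e-15). The pairs were counted in any orientation, so they are not all divergent promoters: Hist2h2ab and Hist2h2ac, for example, face each other. In all, 177 members had at least 2 genes within 1 kb, so their assignment to 1 gene is open to choice. Another OCT4 peak lay within 10 kb of 31.5% of members and of 33.4% of CpG-poor promoter peaks, and the difference was not detectable (exact p = 0.258, odds ratio 0.916), although with a CpG limit of 0.75 it passed (odds ratio 0.809, exact p = 0.0162). The X chromosome held 7 members beside 62 CpG-poor promoter peaks (10.1% of its promoter peaks). On autosomes the shares ran from 27.3% (chromosome 6) to 37.9% (chromosome 18). The share of CpG-rich promoters on each chromosome was not set beside these values. No promoter peak was on Y.

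The members touched 1325 genes, of which 167 also had a CpG-poor promoter peak and 30 had at least 2 CpG-rich ones. Only Zfhx3, which encodes a large zinc-finger homeobox factor, had 3, at chr8:108703568-108703933, chr8:108714568-108714793 and chr8:108715046-108715417. The next genes in alphabetical order, each with 2, were Atoh1, a proneural basic helix-loop-helix factor, and Bola1, a mitochondrial redox protein. The pair at Atoh1 lay 228.5 bp upstream and 437.5 bp downstream of the start.

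To ask how often a CpG-rich promoter had a listed peak, each gene was given 1 promoter window of 1 kb around its most upstream start. Of 8410 CpG-rich windows, 1642 had an OCT4 peak of either class within 1 kb (19.5%, 18.7 to 20.4%), against 1097 of 13528 other windows (8.11%, 7.66 to 8.58%; odds ratio 2.75, Fisher's exact test, p = 3.05e-132). A member lay at 875 of the CpG-rich windows (10.4%), and peaks of the CpG-poor class alone lay at 767 (9.12%). Members also lay at 282 of the 13528 other windows (2.08%), since the rule tests the composition of the peak and not of the window. Composition over the 1-kb window differed little between bound and unbound genes: GC was 63.0 ± 5.16% (SD, n = 875 promoters) with a member and 63.2 ± 5.19% (SD, n = 6372) without any peak, and the CpG ratio was 0.817 ± 0.108 and 0.799 ± 0.114. The share of CpG-rich windows with a member was 11.3% at GC from 55 to 60%, 9.80% from 60 to 65%, 10.6% from 65 to 70%, 9.74% from 70 to 75% and 7.89% (4.84 to 12.6%) from 75% on. The share with an OCT4 peak of either class was 22.4%, 19.3%, 18.2%, 15.5% and 12.6% in the same bins, and so was lower in each bin of higher GC.

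A distal OCT4 peak, more than 1 kb from any start, lay within 50 kb of 66.9% of the 875 promoters with a member and of 64.6% of the 6372 unbound CpG-rich promoters. The difference was not detectable (p = 0.187 by Fisher's exact test, odds ratio 1.11). Within 10 kb the shares were 20.3% with a member and 23.2% without (odds ratio 0.847, exact p = 0.0647). Within 100 kb they were 88.5% and 85.3% (odds ratio 1.32, exact p = 0.0117). Only the difference at 100 kb passed the threshold, with no adjustment over the distances.

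Motif content was compared in the central 200 bp, where few members held a known OCT4 or SOX word. Of the 1175 members, 1049 had neither a POU motif (composite, octamer or MORE) nor the SOX core CCATTGT or CCTTTGT. At least 1 of these words was present in 10.7% of members and 23.9% of CpG-poor promoter peaks. In the unbound CpG-rich promoters described below the share was 2.78%. Anywhere in the peak, 68 members held the octamer and 123 the SOX core, against 45 and 63 in the central 200 bp. All motifs were searched on both strands, and matches can overlap: 8 members held both the composite and the octamer, which is the OCT part of the composite read on the other strand, 3 held octamer and MORE, and 1 held composite and MORE. The composite motif was present in 1.70% of members (1.10 to 2.61%) and in 5.52% of CpG-poor promoter peaks (p = 1.41e-08 by Fisher's exact test, odds ratio 0.296). The octamer was present in 3.83% against 6.76% (odds ratio 0.549, exact p = 0.000362), and the SOX core in 5.36% against 13% (odds ratio 0.378, exact p = 1.56e-13). Central GC was 64.3% in members and 49.1% in the others on average, and the rule fixed that gap. Against CpG-poor promoter peaks of at least 50% GC, the composite and SOX differences still passed the threshold and the octamer difference did not (odds ratio 0.753, exact p = 0.19).

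The comparison with unbound CpG-rich sequence gave the opposite direction for the same motifs. Unbound CpG-rich promoters were 7221 windows that met the same composition limits, at genes with no OCT4 peak within 1 kb of any start. They were 319 bp wide and centred 19.5 bp downstream of the gene's most upstream start (the members' own median width and position). All sat at this 1 position. The members' distances, measured from the nearest of all starts, were spread with an SD of 276 bp. The central 200 bp of the unbound windows held the composite motif in 0.0692% (5 windows), the octamer in 0.263% (19 windows) and the SOX core in 2.47%. The members exceeded these by odds ratios of 25.0 (exact p = 1.90e-13), 15.1 (exact p = 1.04e-24) and 2.24 (exact p = 4.03e-07). MORE was present in 1.11% of members and 0.0277% of unbound windows (2 windows; odds ratio 40.4, exact p = 5.95e-10). In promoters of all kinds, measured over 200 bp at the same position, the shares were 0.358% for the composite, 0.798% for the octamer, 4.95% for the SOX core and 0.435% for MORE. Unbound windows were richer in GC, at 69.0% on average, so the test was repeated at equal composition. With central GC from 60 to 70% in both groups (622 members and 3355 unbound windows, mean GC 65% and 65.4%), the octamer (odds ratio 14.7, exact p = 3.19e-09), the composite (odds ratio 12.7, exact p = 0.000173), the SOX core (odds ratio 2.18, exact p = 0.000413) and MORE (odds ratio 10.9, adjusted exact p = 0.013) were still more frequent in members. With central GC from 55 to 65%, the SOX core was not (odds ratio 1.54, exact p = 0.0672).

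Any POU motif was present in 67 members (5.70%), against 12.8% of CpG-poor promoter peaks and 0.332% of unbound CpG-rich promoters. The share was higher in members than in unbound windows in each of 6 bins of GC. It was 11.6% of 232 members against 0.812% of 616 unbound windows at 55 to 60% GC, 4.47% against 0.219% at 60 to 65%, 2.88% against 0.278% at 65 to 70%, and 2.78% against 0.299% at 70 to 75%. By position, 6.74% of the 727 members within 200 bp of the start had a POU motif, 5.91% of the 203 farther upstream and 2.45% (1.13 to 5.24%) of the 245 farther downstream. The 67 members with a POU motif lay upstream of the start in 79.1% of cases (67.9 to 87.1%), against 42.3% (39.5 to 45.3%) of the 1108 without. Their median width was 392 bp against 315.5 bp, and their median GC 60.5% against 63.9%.

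**Figure D3:**
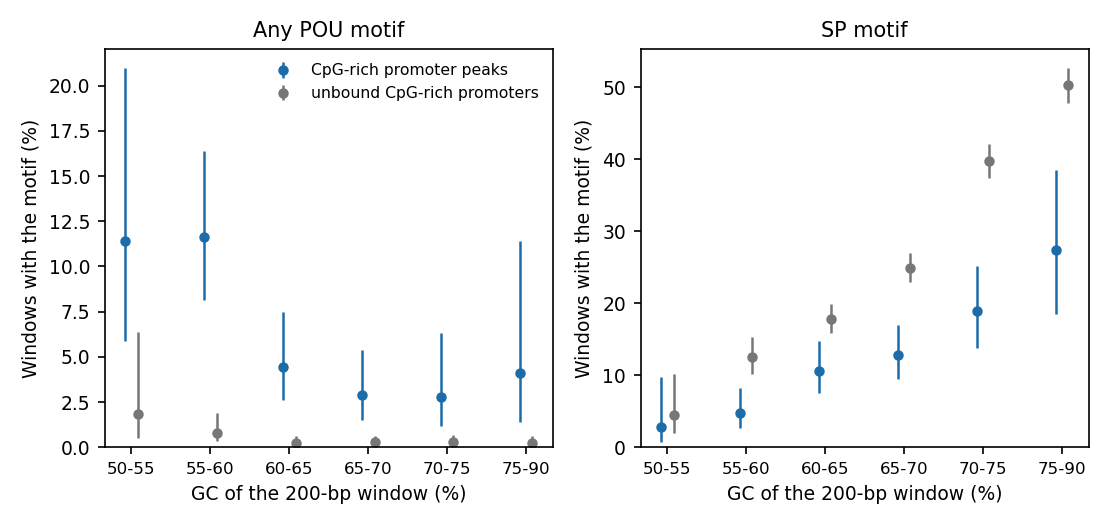
Share of 200-bp windows (%) with any POU motif (left) and with the SP motif (right) against the GC content of the window, for CpG-rich promoter peaks and unbound CpG-rich promoters; points are shares and bars 95% Wilson intervals, and windows under 50% GC are not drawn. The POU share is higher and the SP share lower in the peaks in each of the 6 bins.

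Of a panel of 19 motifs, 5 were more and 8 less frequent in members than in unbound CpG-rich promoters (Fisher's exact test, adjusted p under 0.05 over the panel). The fifth of the more frequent ones, beside the POU and SOX motifs, was CAAGGTCA, read by ESRRB and related nuclear receptors, with 1.87% against 0.263% (odds ratio 7.23, adjusted exact p = 6.26e-09; 0.722% of all promoters). Most of the less frequent ones were words of general promoter factors. The SP word GGGGCGGG, bound by SP1 and its relatives, was present in 11.7% of members and 31.4% of unbound windows (odds ratio 0.291, adjusted exact p = 1.58e-48; 16.5% of all promoters). The NFY word AGCCAAT was present in 2.21% against 7.02% (odds ratio 0.300, adjusted exact p = 1.33e-11; 5.80% of all promoters). The NRF1 word CGCATGCG was present in 0.851% against 3.21% (odds ratio 0.259, adjusted exact p = 1.41e-06; 1.61% of all promoters), and the CREB word TGACGTCA in 0.766% against 2.71% (odds ratio 0.277, adjusted exact p = 1.71e-05; 1.81% of all promoters). The ETS word CCGGAAG was present in 8.43% against 15.4% (odds ratio 0.504, adjusted exact p = 8.20e-11; 8.69% of all promoters) and the YY1 word ATGGCGGC in 3.4% against 5.98% (odds ratio 0.554, adjusted exact p = 0.00037; 3.02% of all promoters).

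The position of the unbound windows bore on these shares. When they were centred 250 bp upstream of the start, ETS and YY1 were more frequent in members (odds ratios 1.36 and 1.72, adjusted exact p = 0.0398 and 0.0306), the odds ratio of ESRRB fell to 2.97 (adjusted exact p = 0.00259), and NRF1 and CREB no longer differed past the threshold. SP and NFY stayed less frequent in members, by a smaller margin (odds ratios 0.586 and 0.585, adjusted exact p = 4.56e-07 and 0.0327). The SP word was then present in 18.5% of unbound windows. Among members within 200 bp of the start, ETS was present in 11%, against 1.63% of those farther downstream, so the word followed position within the members too. SP stayed below the unbound share in each of 6 bins of GC, with 12.8% against 25.0% at 65 to 70% GC and 18.9% against 39.7% at 70 to 75%. The ZNF143 word ACTACAA (0.851% against 1.97%, 2.05% of all promoters; adjusted exact p = 0.00989) and the AP-2 word GCCNNNGGC (23.1% against 26.1%, 15.8% of all promoters; adjusted exact p = 0.045) passed the threshold. At a central GC of 60 to 70% AP-2 changed direction (odds ratio 1.12, adjusted exact p = 0.437), and ZNF143 kept its size (odds ratio 0.409 against 0.428) with an adjusted exact p of 0.0509. At 55 to 65% ZNF143 passed again (odds ratio 0.176, adjusted exact p = 6.47e-05). The other 6 words of the panel did not pass in the main comparison. The E-box CACGTG was present in 7.83% of members, 7.91% of unbound windows and 5.33% of all promoters, ZIC CAGCAGG in 7.32%, 6.59% and 8.40%, and KLF GGGTGTGG in 1.79%, 2.13% and 2.64%. The word CTCGCGAG of BANP was present in 1.11%, 1.63% and 0.865%, TTCCNGGAA of STAT in 0.851%, 0.72% and 0.765%, and the TATA box (TATAAA) in 2.55%, 2.66% and 8.15%. TATA passed in opposite directions under other settings, more frequent in members with the upstream windows (odds ratio 1.88, adjusted exact p = 0.0303) and less frequent at 55 to 65% GC (odds ratio 0.505, adjusted exact p = 0.034). A match is a word in the sequence and not a bound site, and the absence of a word in these windows says nothing of the factor.

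**Figure D4:**
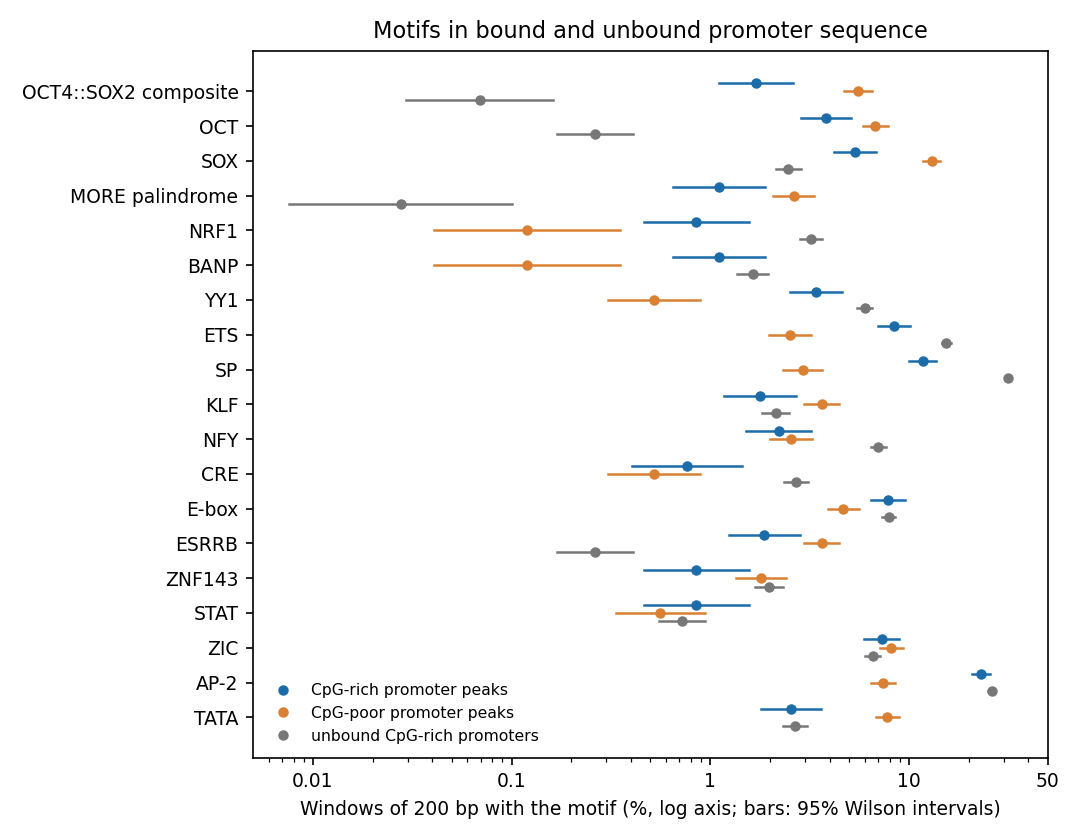
Share of 200-bp windows with each of 19 motifs (%, log axis) in CpG-rich promoter peaks, CpG-poor promoter peaks and unbound CpG-rich promoters; points are shares and bars 95% Wilson intervals. For OCT the peaks of the CpG-rich class (3.83%) lie between the unbound promoters (0.263%) and the CpG-poor class (6.76%), and for SP they lie below the unbound promoters (11.7% against 31.4%).

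A count of all 8-mers, each joined with its reverse complement, did not depend on known motifs. Of 32896 8-mers, 288 (0.875%) were more and 237 (0.72%) less frequent in the members' central 200 bp than in unbound CpG-rich promoters (Fisher's exact test, Benjamini-Hochberg adjusted p under 0.05). The counts were smaller under each other setting, all of which also changed the number, length or position of the windows. With central GC from 60 to 70% in both groups, 19 were more and 30 less frequent, and with the unbound windows 250 bp upstream (2981 windows, mean GC 65.2%), 31 and 4. In the central 100 bp, where the difference in GC stayed, 103 and 104 were called. Of the 237 less frequent ones, 210 held a CG dinucleotide, and of the 288 more frequent ones 27 did.

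The 5 with the largest ratio among those in at least 1% of members were TATGCTAA (20 members and 1 unbound window, adjusted exact p = 3.33e-13), ATTATGCA (15 and 1, adjusted exact p = 2.12e-09), TTATGCAA (23 and 3, adjusted exact p = 9.61e-14), ATGTAAAT (15 and 2, adjusted exact p = 1.24e-08) and CGTGCATA (13 and 2, adjusted exact p = 3.99e-07), which was tied with TAGCATAA (13 and 2). Of the 5, ATTATGCA, TTATGCAA and CGTGCATA hold ATGCA or its complement. With central GC from 60 to 70% in both groups, TTATGCAA (9 members of 622 and 3 unbound windows) and ATGTAAAT (7 and 0) stayed past the threshold. TATGCTAA and ATTATGCA (5 and 0 each, adjusted exact p = 0.0562) and CGTGCATA (5 and 1, adjusted exact p = 0.191) did not, on smaller counts. At 55 to 65% GC, a range chosen after seeing the data, all 5 passed, with 12 members and 0 unbound windows for TATGCTAA, 8 and 1 for ATTATGCA and 8 and 0 for CGTGCATA. Of the 234 8-mers that hold ATGCA or its complement, 58 were among the 288, and at equal GC of 60 to 70% they made up 8 of the 19. Other leading words were TATGCAAA (49 members and 11 unbound windows), the octamer ATGCAAAT itself (45 and 19), and CATGAATA (17 and 4), named after their values were seen.

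Gene lists are described by counts beside the background, with no test. Of 21911 protein-coding genes, 1325 (6.05%) had a member within 1 kb of a start, and among the 8397 with a CpG-rich promoter window the share was 10.9%. Of 35 pluripotency genes 1 had a member, Nr5a2 (2.86%, 0.506 to 14.5%), and 14 others had a CpG-poor promoter peak only (40%, against 10.5% of all genes). Those included Nanog, Esrrb, Zfp42, Sall4, Dppa4, Tdgf1, Lin28a, Tet1 and Jarid2. The peaks at Nanog, Esrrb and Zfp42 held the composite motif in their central 200 bp. Those at the rest of the 14 genes held no POU motif there, and only Sall4, Rif1 and Jarid2 among that rest had a SOX core. The list also had 13 genes with a CpG-rich promoter window, among them Sox2, Klf2, Klf4, Klf5 and Rest, and 0 of the 13 had a member. The interval of the 1 in 35 holds the background of 6.05%, so a difference was not detectable at this size of list. At Tbx3, Rif1 and Tet2, whose windows were CpG-rich, the promoter peaks were of the CpG-poor class.

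**Figure D5:**
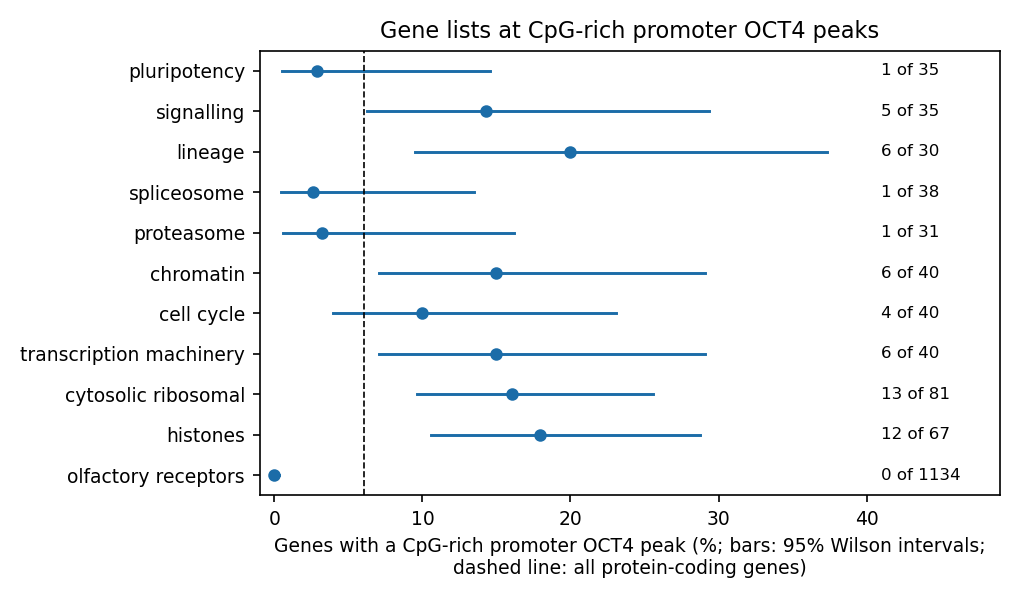
Share of genes in each list (%) with a CpG-rich promoter OCT4 peak within 1 kb of a start, with 95% Wilson intervals as bars, the counts at the right and the share of all protein-coding genes (6.05%) as a dashed line. The lists run from 0 of 1134 olfactory receptor genes to 6 of 30 lineage genes (20%), with 1 of 35 pluripotency genes.

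Of 35 signalling genes 5 had a member (14.3%, 6.26 to 29.4%), and 4 of those were among the 22 with a CpG-rich window (18.2%, against 10.9%). They were Spry4 and Dusp6, feedback inhibitors of FGF/ERK signalling, Etv5, an ETS factor induced by it, Axin2, a feedback inhibitor of Wnt signalling, and Smad7, an inhibitor of TGF-beta signalling. The peak at Dusp6 (chr10:99262960-99263352, 393 bp, GC 56.5%) was centred 75 bp upstream of the start, that at Etv5 (chr16:22439732-22440222, 491 bp, GC 55.4%) 258 bp upstream, and that at Axin2 (chr11:108920638-108921390, 753 bp, GC 72.9%) 214 bp downstream in a UTR. Those at Spry4 and Smad7 lay 294.5 and 688.5 bp upstream. None of the 5 held a POU motif or the SOX core in its central 200 bp.

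Of 30 lineage genes, which are silent or low in ES cells as background, 6 had a member (20%, 9.51 to 37.3%), and 5 of those 6 were among the 19 with a CpG-rich window (26.3%). At Pax6, a regulator of eye and neural development, the peak (chr2:105675141-105675696) covered the start and held an octamer and a MORE match, 8.5 and 6.5 bp downstream of the start. The octamer lay inside the MORE match, which had 2 mismatches, so they are the same stretch of sequence. At Neurog1, a proneural factor, the peak (chr13:56251991-56252559) was 112 bp upstream and held an octamer and a SOX core. The peaks at Sox17, an endoderm regulator, and Isl1, a motor neuron and heart regulator, lay 29 and 275.5 bp upstream. Neither held any of these words in its central 200 bp, and nor did those at Neurog2 and Lhx1. All 6 midpoints lay upstream, from 742.5 to 14.5 bp. Other lineage genes with CpG-rich windows, such as Gata2, Sox1, T, Eomes and Cdx2, had no promoter peak of either class.

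Cytosolic ribosomal protein genes, searched by name pattern, had a member in 13 of 81 (16.0%, 9.63 to 25.5%), and 11 of those were among the 54 with a CpG-rich window (20.4%). Of these peaks 10 lay within 200 bp of the start, for example at Rps3 (13 bp upstream) and Rps12 (41 bp downstream). None of the 13 had a POU motif or the SOX core in its central 200 bp. The list includes Rpl10l, a copy of a ribosomal gene, and reads of such copies may map to more than 1 place. Of 38 spliceosome genes 1 had a member, Srsf7, a splicing regulator (2.63%, 0.466 to 13.5%), and of 31 proteasome genes 1, Psmb7, a catalytic subunit (3.23%, 0.572 to 16.2%). Among those with a CpG-rich window, 1 of 27 spliceosome genes (3.7%) and 0 of 18 proteasome genes had a member. The intervals of both full lists overlap that of the ribosomal genes.

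Histone genes had a member in 12 of 67 (17.9%, 10.6 to 28.7%). Of the 29 with a CpG-rich window 4 had one (13.8%). The 12 genes shared 9 distinct peaks, the midpoint was in a coding exon in 11 of the 12, and the median position was 242.75 bp downstream of the start. Examples are Hist2h2ab (147 bp), Hist3h2ba (218.5 bp), Hist4h4 (240 bp) and Hist1h4h (241.5 bp downstream), which encode core histones. Histone genes are nearly identical copies, so reads from one can be placed at another, and the part of that in these peaks was not tested. None of the 9 peaks held a POU motif or the SOX core in its central 200 bp.

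Genes of chromatin regulators had a member in 6 of 40 (15%, 7.06 to 29.1%). At Rnf2, a ubiquitin ligase of Polycomb complex PRC1, the peak was centred 5 bp downstream of the start, at Smarce1, a subunit of BAF complexes, 12.5 bp upstream, and at Arid1b, another BAF subunit, 20.5 bp downstream. Kdm2b, which recruits PRC1 to CpG islands through a CXXC domain, had a member 256.5 bp upstream of the start. Of the 6 only that at Smarce1 held a SOX core in its central 200 bp. Of the 32 genes of this list with a CpG-rich window 4 had a member (12.5%). The transcription machinery list also had 6 of 40, with 2 of its 25 CpG-rich windows (8%), including Med23, a Mediator subunit (55.5 bp upstream), Gtf2h1, a subunit of TFIIH (90 bp upstream), Polr2c, a subunit of RNA polymerase II (149.5 bp downstream), and Gtf2b, which encodes TFIIB (154 bp downstream). Of 40 cell cycle genes 4 had a member (10%, 3.96 to 23.1%). These were E2f2 (96 bp downstream), E2f3 (98 bp downstream), Rbl1 (268.5 bp upstream) and Cdk6 (657 bp downstream). None of their peaks held a POU motif or SOX core in its central 200 bp. All 4 genes were among the 28 cell cycle genes with a CpG-rich window (14.3%). Of 1134 olfactory receptor genes, 0 had a CpG-rich promoter window and 0 had a member, which allows a share of up to 0.338%.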

How the data were processed

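The authors deposited 1 merged list of OCT4 peaks from 2TS22C cells, with the chromosome, start and end of each peak and no value per library. Per the submitters' processing notes and the study's methods, reads were aligned to mm10 with STAR 2.6.1c, duplicates were removed with Picard, peaks were called with MACS2 2.1.1.20160309, and peak files were merged with bedtools. Whether replicates were pooled before calling, and which of the 4 libraries entered the merge, is not given in the sources used here. Depth is unknown, and a peak missing from the list cannot be told from one below the calling threshold. The study's methods describe the removal of very large peaks and of those in input samples or blacklisted regions. The list still held a peak of 38168 bp, so the size limit was not applied to it. Whether input and blacklisted peaks had been taken out of it is unknown, so a listed peak is not by itself proof of OCT4 binding.

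Coordinates were used on GRCm38 (mm10), 1-based, with GENCODE M21 annotation, and sequences are those of the reference genome. GC content and the CpG ratio were computed over the whole peak, and motifs and 8-mers were counted in its central 200 bp on both strands. A midpoint that met several features was placed by the first that applied of UTR, coding exon, other exon, intron and intergenic. Fisher's exact tests, two-sided, were run over peaks, genes or windows, with Benjamini-Hochberg adjustment over the 19 motifs or the 32896 8-mers. Simulated windows with planted words were used to test the code of the 8-mer comparison. Unbound windows were left out where they met a peak, unknown bases or an earlier window.

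The members, gene lists and motifs were chosen with earlier results of these data known. By rule, the text names all pluripotency and signalling genes with a member, up to 4 genes nearest the start for each other list, up to 10 peaks with the best composite match, the 5 widest peaks, 3 peaks on each side of each limit, the 3 genes with most members and the 5 8-mers with the largest ratio; other genes were named after their values were seen. Composite matches on chromosome 18 were left out of those shown. Alternatives changed the composition limits, the distance to the start, the width, the window, its GC content and the mismatches. The work used SciPy 1.17.1, NumPy 2.4.6 and Python 3.11.15, and plots were drawn with matplotlib 3.10.9.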

Additional observations from a re-analysis of the deposited data

How the results depend on the processing

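The count of 1175 members fell to 781 with a CpG ratio of at least 0.75 and to 656 with peaks of at least 300 bp. The octamer difference from CpG-poor peaks was lost in the central 100 bp (odds ratio 0.724) and against CpG-poor peaks of at least 50% GC (0.753), and the SOX difference from unbound promoters at 55 to 65% GC (1.54, chosen after seeing the data). The difference in width passed the threshold with GC of at least 60% (odds ratio 0.657), a CpG ratio of at least 0.75 (0.779) or a start within 500 bp (0.850), and that in neighbouring peaks with a CpG ratio of at least 0.75 (0.809). For distal peaks the odds ratio was 0.847 at 10 kb and 1.32 at 100 kb. Panel calls were 8 more and 2 less frequent with the unbound window 250 bp upstream, and 5 less frequent for members within 200 bp of the start. More and less frequent 8-mers numbered 103 and 104 in the central 100 bp, 19 and 30 at 60 to 70% GC, 31 and 4 with the window upstream, 29 and 12 at 55 to 65% GC, and 94 and 75 within 200 bp; the last pair of settings was also chosen after seeing the data. Odds ratios against unbound promoters changed direction with the window upstream for BANP (1.03), YY1 (1.72), ETS (1.36), E-box (1.25), AP-2 (1.16) and TATA (1.88), in the central 100 bp for KLF (1.21), E-box (1.03) and ZIC (0.982), at 60 to 70% GC for KLF (1.05) and AP-2 (1.12), at 55 to 65% GC for KLF (1.08), STAT (0.618) and AP-2 (1.31), and within 200 bp for E-box (1.07) and TATA (1.04). With at most 2 mismatches, 2 members and 0 unbound windows held the composite motif, which gives no odds ratio (exact p = 0.0196). Of 170 recomputed values, 120 gave the same call or a count within 1.5 times. The composite and SOX differences from CpG-poor peaks, the composite and octamer differences from unbound promoters, the shares upstream and with starts on opposite strands, and the share of CpG-rich promoters with a peak did so under every alternative run. The causes of the changes were not tested. No paired analysis was possible because libraries have no columns of their own in the peak list, and for the same reason no replicate could be left out.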
